A study of Mus musculus with 6 samples.

Results

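The genes described here encode the mitochondrial respiratory complexes II to V, cytochrome c and some of the proteins that build these complexes. They are the rows of the array table whose platform annotation symbol is Cyc1 or Cycs, or starts with Sdha, Sdhb, Sdhc, Sdhd, Uqcr, Cox followed by a digit, or Atp5, with pseudogenes left out. This gave 55 of the 23185 genes tested, each with 1 row: 40 subunits, 13 assembly factors, the electron carrier Cycs and Cox7a2l, a relative of the complex IV subunit 7a. By complex there were 8 genes of complex II, 8 of complex III, 26 of complex IV and 12 of complex V. Genes of these complexes that had no row under a name of this kind were left out of the 55. No subunit encoded by mitochondrial DNA was analysed.

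The arrays held RNA of 3 irisin knockout and 3 wild type samples of FVB mice, an inbred albino strain. Irisin is a peptide hormone cut from the outer part of FNDC5, a membrane protein (gene Fndc5); the knockout was made by injecting zygotes with Cas9 mRNA and 5 guide RNAs, and littermates served as controls. Both groups had eaten standard chow with 10% fat for 24 weeks; age at sampling and the deleted stretch of Fndc5 are not stated in the labels. The labels call the material cardiomyocytes in some fields and myocardium in another, and they leave unsaid whether each array of a group had its own animal; without that, the spread behind the p-values may be technical. The series title names insulin resistance and ischaemia-reperfusion injury of the heart as the setting of the comparison.

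The respiratory chain passes electrons from reduced cofactors to oxygen and pumps protons across the inner mitochondrial membrane. Complex II oxidises succinate, complex III passes electrons from ubiquinol to cytochrome c, complex IV reduces oxygen, and complex V uses the proton gradient to make ATP. Complex IV must be loaded with heme A and copper by dedicated assembly factors before it can work, and it has subunit isoforms that differ between heart or skeletal muscle and other tissues. Heart muscle holds many mitochondria and draws most of its ATP from this chain.

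Fndc5 was lower in the knockout, at 7.68, 5.49 and 5.45 log2 units in knockout replicates 1, 2 and 3 against 8.42, 8.40 and 7.83 in wild type replicates 1, 2 and 3 (difference -2.01, limma adjusted p = 0.0359). Knockout replicate 1 thus kept a value close to wild type. The call did not hold in 5 of the 6 fits without 1 array (difference -1.63 to -2.21, adjusted p = 0.0617 to 0.133) or with robust eBayes (adjusted p = 0.0635), and without knockout replicate 1 the difference was -2.75 (adjusted p = 0.00217). The arrays also differed in markers of other cells, listed here because such differences may bear on the values below. The mean over 4 atrial markers was 6.91, 3.71 and 3.34 in the knockout arrays and 10.89, 5.14 and 6.88 in the wild type arrays, with 0 of 4 past the threshold. Fibroblast markers averaged 6.58 to 6.71 in the knockout and 7.08 to 7.87 in wild type (6 of 10 fell), smooth muscle markers 4.96 to 5.43 and 6.59 to 8.58 (5 of 6 fell), and endothelial markers 6.99 to 7.26 and 7.52 to 7.60 (2 of 7 fell). Macrophage markers averaged 4.28 to 4.37 in the knockout and 4.45 to 4.60 in wild type (1 of 6 fell), while skeletal muscle and brown adipocyte markers gave 0 calls among 8 and 6 genes. The 10 ventricular cardiomyocyte markers were bright on every array, with means of 11.10 to 11.22 in the knockout and 10.80 to 11.29 in wild type; 1 of them, the calcium pump regulator Pln, rose. The values have no true zero, so no marker can be called absent. The part of these marker differences in the results below was not tested, and fewer cells of a type and less RNA per cell cannot be told apart in such samples. The labels name no batch, and a batch matching the genotypes cannot be told apart from genotype.

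Calls among the assembly factors ran in 1 direction and calls among the subunits in both; the difference between these groups was not tested. Among the 13 assembly factors 8 rose in the knockout and 0 fell, with a median difference of 0.63 on the log2 scale. Among the 40 subunits 7 rose and 5 fell, with a median of 0.11 that flipped to -0.036 after quantile normalization, and neither Cycs nor Cox7a2l passed. In all, 15 of the 55 genes rose (27.3%), 5 fell (9.09%) and 35 did not pass, at a Benjamini-Hochberg adjusted p under 0.05 from limma with adjustment over all genes. Over all 23185 genes, 10.4% rose and 6.18% fell, 16.6% in all, and the median difference was -0.05, against 0.20 for the 55 genes. Values of the 2 genotypes did not overlap for 19 genes that were higher and 6 that were lower in the knockout, 25 of 55, where over all genes 17.2% lay wholly above and 17.0% wholly below.

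Level has to be read beside these counts and medians. When all genes were ranked by their mean over the 6 arrays into 10 equal parts, 33 of the 55 genes fell into the brightest part. There, 9 of the 33 rose (27.3%) and 5 fell (15.2%), against 34.5% and 11.1% of all genes in that part, so the share that rose lay below its background. Groups did not overlap for 11 of the 33 that were higher and 6 that were lower in the knockout. Of all 2319 genes in that part, 1107 lay wholly above, a larger share than among the 33, and 403 wholly below. The 13 assembly factors lay in parts 7 to 10, only 3 of them in the brightest. Of all genes in parts 7 to 10, 23.5% rose and 10.9% fell, against 61.5% and 0% of the assembly factors. The median difference of all genes in those parts was 0.11. In the brightest part it was 0.27 over all genes and 0.13 over the 33 genes described here.

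**Figure D1:**
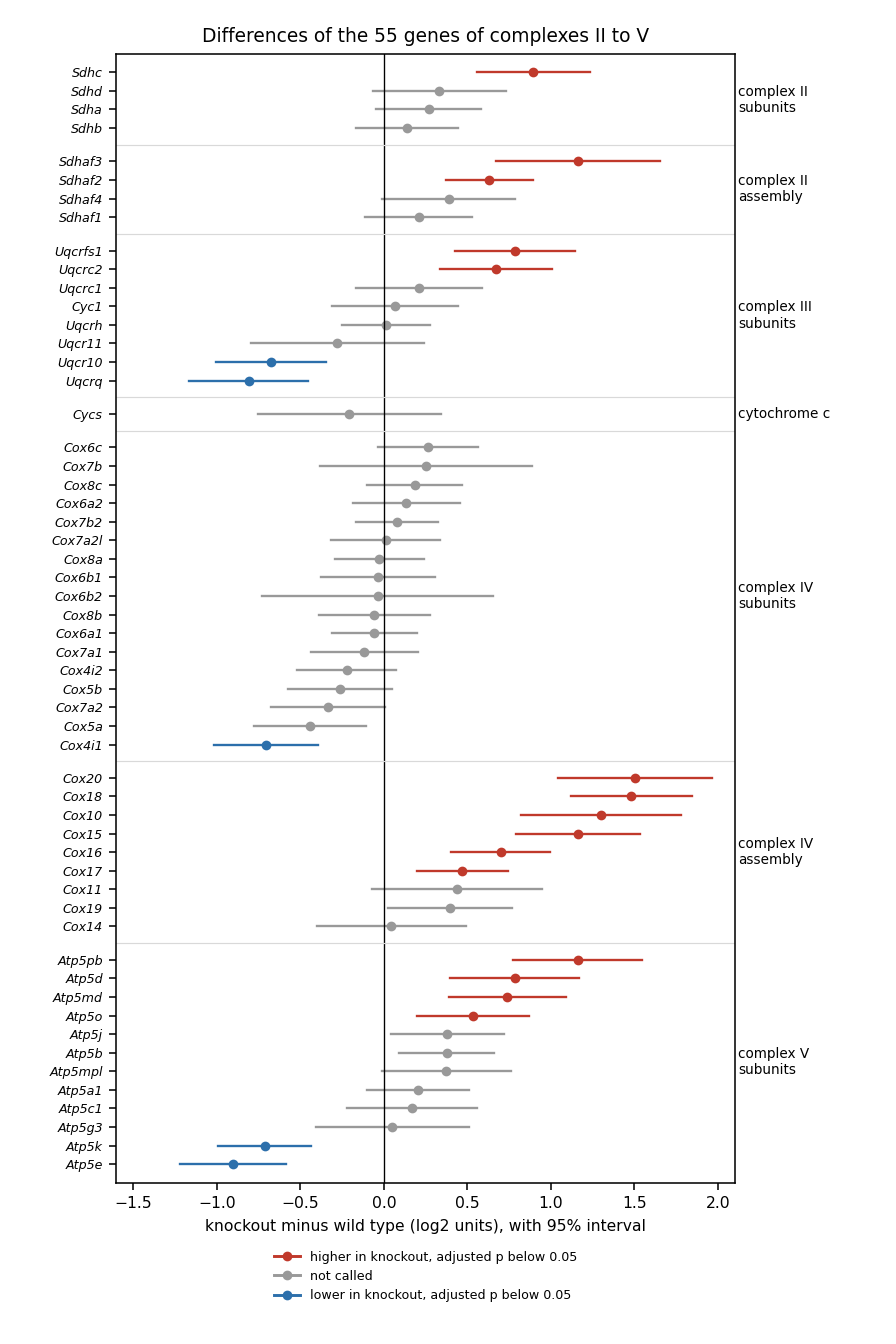
Difference of each of the 55 genes, knockout minus wild type in log2 units (horizontal axis), by complex and kind; points are limma estimates from 3 arrays per group and bars are unadjusted 95% intervals. Of the 13 assembly factors 8 are called higher and 0 lower, whereas calls among subunits of complexes III and V run both ways and 1 subunit of complex IV is called, as lower. The group of complex IV subunits is drawn together with Cox7a2l.

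**Figure D2:**
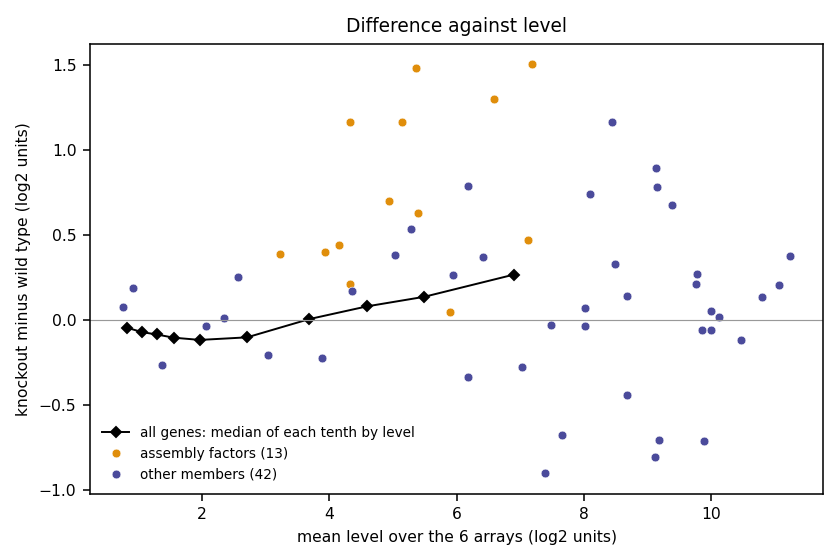
Difference, knockout minus wild type (vertical axis, log2 units), against mean level over the 6 arrays (horizontal axis, log2 units). The black line joins the medians of all genes in 10 equal parts by level and ends at 0.27 in the brightest; 11 of the 13 assembly factors lie above 0.3 while the other 42 genes scatter to both sides.

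Both kinds of gene were well represented in complex IV. Of its 9 assembly factors 6 rose and 0 fell (median 0.70). Of its 16 subunits 0 rose and 1 fell (median -0.05, and 0.06 after centring each array on its median). The brightest part held 9 of the 16 subunits, and there 34.5% of all genes rose and 11.1% fell. The largest rises were in factors that handle subunit 2 and heme A. Cox20, a chaperone of the newly made subunit 2, read 7.97, 7.89 and 7.94 in the knockout arrays, against 6.87, 6.42 and 6.00 in the wild type arrays. Its lowest knockout value exceeded the highest wild type value by more than the whole spread of either group, with a difference of 1.50 (SE 0.20, limma adjusted p = 0.00225). Cox18, which helps to insert subunit 2 into the inner membrane, read 6.18, 6.23 and 5.92 in the knockout arrays, against 4.91, 4.44 and 4.54 in the wild type arrays, a difference of 1.48 (SE 0.16, limma adjusted p = 0.000916). Again the groups did not overlap. The next genes make heme A in successive steps.

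Cox10, the heme O synthase, read 7.39, 7.25 and 7.07 in the knockout arrays, against 6.06, 6.28 and 5.46 in the wild type arrays, a difference of 1.30 (SE 0.21, limma adjusted p = 0.00452). Cox15, which turns heme O into heme A, read 5.79, 5.93 and 5.45 in the knockout arrays, against 4.68, 4.67 and 4.34 in the wild type arrays, a difference of 1.16 (SE 0.16, limma adjusted p = 0.00260). For both genes all knockout values lay above all wild type values, and wild type replicate 3 was the lowest array. Cox16, needed for the copper centre of subunit 2, rose by 0.70 (SE 0.13, limma adjusted p = 0.00815). The copper chaperone Cox17 rose by 0.47 (SE 0.12, limma adjusted p = 0.0299), but this call was lost in 5 of 6 fits with 1 array removed (highest adjusted p 0.113). It was also lost after quantile normalization (adjusted p = 0.232). The remaining factors did not pass: the difference was 0.44 for Cox11, which delivers copper to subunit 1 (95% interval -0.07 to 0.95), 0.40 for Cox19 (0.03 to 0.77) and 0.04 for Cox14 (-0.40 to 0.49). Without wild type replicate 1, Cox11 and Cox19 passed as higher, at 0.71 (adjusted p = 0.0114) and 0.56 (adjusted p = 0.0235).

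**Figure D3:**
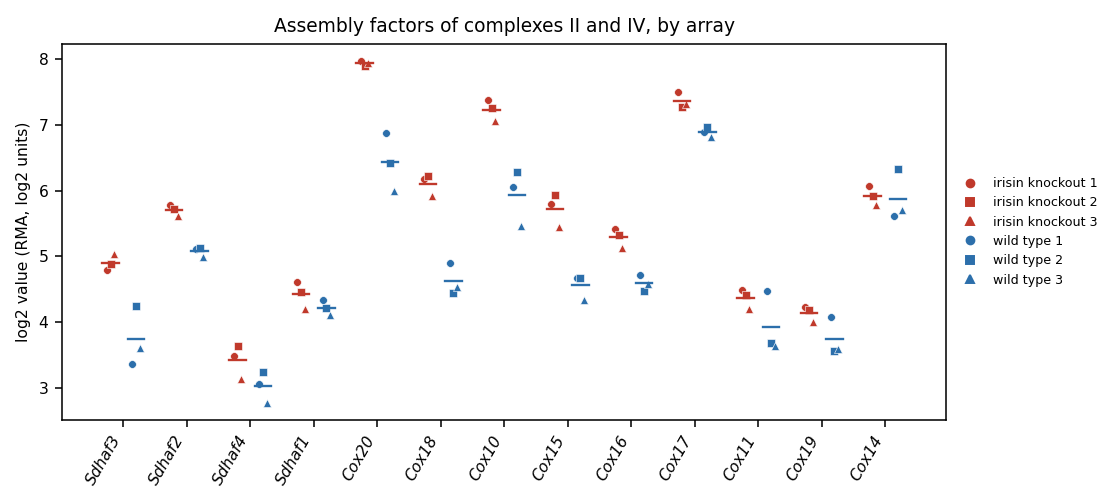
Value of each assembly factor on each array (vertical axis, log2 units), knockout arrays in red to the left and wild type arrays in blue to the right; symbols mark the replicate number and lines the group means (n = 3). The groups do not overlap for the 8 genes called higher and overlap for the other 5 genes.

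Windows around the gene starts are shown for 2 assembly factors that rose and 2 complex V subunits that fell, because all 4 hold the same letters. RefSeq promoter windows (mouse assembly GRCm38.p6, 250 bases before to 50 after the start, 5′ to 3′ on the gene's strand) matched 42 of the 55 genes. Capitals mark CCGGAAG or its reverse complement CTTCCGG, a core bound by the ETS factor GABP.
Cox15 (chr19:43752951-43753250, minus strand): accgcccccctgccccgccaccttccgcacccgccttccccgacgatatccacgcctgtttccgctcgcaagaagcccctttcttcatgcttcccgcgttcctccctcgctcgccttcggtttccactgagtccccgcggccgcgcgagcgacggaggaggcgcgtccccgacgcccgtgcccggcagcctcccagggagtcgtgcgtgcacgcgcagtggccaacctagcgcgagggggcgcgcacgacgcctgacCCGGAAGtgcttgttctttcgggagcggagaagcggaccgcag
Cox20 (chr1:178318903-178319202, plus strand): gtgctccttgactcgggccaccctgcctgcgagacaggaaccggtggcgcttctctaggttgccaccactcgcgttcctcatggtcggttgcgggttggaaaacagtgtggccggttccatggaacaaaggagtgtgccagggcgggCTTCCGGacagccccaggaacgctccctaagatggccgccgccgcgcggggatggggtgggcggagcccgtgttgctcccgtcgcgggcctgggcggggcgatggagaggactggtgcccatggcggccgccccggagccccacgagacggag
Atp5e (chr2:174464052-174464351, minus strand): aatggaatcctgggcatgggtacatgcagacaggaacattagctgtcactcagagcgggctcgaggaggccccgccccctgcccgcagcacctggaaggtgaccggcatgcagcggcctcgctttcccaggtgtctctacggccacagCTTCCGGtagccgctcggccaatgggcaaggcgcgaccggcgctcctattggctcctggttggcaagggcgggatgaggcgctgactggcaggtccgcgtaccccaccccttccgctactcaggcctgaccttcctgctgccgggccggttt
Atp5k (chr5:108434350-108434649, minus strand): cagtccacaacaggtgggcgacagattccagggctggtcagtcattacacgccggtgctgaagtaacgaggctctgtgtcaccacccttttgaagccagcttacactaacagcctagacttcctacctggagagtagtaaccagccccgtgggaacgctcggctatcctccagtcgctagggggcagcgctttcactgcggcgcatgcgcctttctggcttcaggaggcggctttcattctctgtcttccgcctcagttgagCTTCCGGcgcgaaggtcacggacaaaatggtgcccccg
These letters, on either strand, were in a window of 19 of the 42 genes (45.2%), against 9.93% of all 27025 genes with a window. They were in 8 of 11 assembly factors, in 7 of 11 genes that rose, in 2 of 3 that fell and in 10 of 28 that did not pass, so they stood in genes of every direction. A second motif, GCGCATGCG or its reverse complement CGCATGCGC, a core bound by NRF1, was in 5 of the 42 genes (11.9%) and in 1.95% of all genes; of these 5, 0 rose, 1 fell (Atp5k) and 4 were not called. AAGATGGCG, bound by YY1, was in Atp5j and Cox10 (1.64% of all genes), and TCAAGGTCA, bound by oestrogen-related receptors, in Atp5g3 and Sdhd (0.466% of all genes). No 2 of these motifs overlapped in any of the 46 windows of the 42 genes. A gene with several windows counted once, if any window held the letters; a match describes the sequence and shows no binding.

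The isoforms of complex IV that are typical of heart and skeletal muscle did not pass the test in either direction. Cox6a2, the muscle form of subunit 6a, read 11.00, 10.79 and 10.80 in the knockout arrays, against 10.50, 10.88 and 10.81 in the wild type arrays, and the interval of its difference was -0.19 to 0.45. Its common counterpart Cox6a1 read 9.93, 9.76 and 9.80 in the knockout arrays, against 9.89, 9.91 and 9.86 in the wild type arrays (interval -0.31 to 0.20). Both genes thus stayed within about 0.5 log2 units of wild type by these unadjusted 95% intervals. Cox7a1, the muscle form of subunit 7a, read 10.47, 10.45 and 10.31 in the knockout arrays, against 10.37, 10.77 and 10.44 in the wild type arrays (interval -0.44 to 0.20). Cox7a2 read 6.10, 5.93 and 5.99 in the knockout arrays, against 6.42, 6.55 and 6.05 in the wild type arrays (interval -0.68 to 0.01) and passed as lower after quantile normalization (-0.52, adjusted p = 0.0450). Wild type replicate 2 was the highest wild type array for both. Cox8b, the muscle form of subunit 8, read 9.95, 10.00 and 9.95 in the knockout arrays, against 9.86, 10.31 and 9.90 in the wild type arrays (interval -0.39 to 0.27), and Cox8a read 7.51, 7.46 and 7.43 in the knockout arrays, against 7.64, 7.41 and 7.44 in the wild type arrays (interval -0.29 to 0.24).

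The called subunit was Cox4i1, the common form of the regulatory subunit 4, at 8.87, 8.76 and 8.84 in the knockout arrays, against 9.30, 9.71 and 9.58 in the wild type arrays. The highest knockout value was below the lowest wild type value, with a difference of -0.71 (SE 0.14, limma adjusted p = 0.00933), and the call held in all 6 fits without 1 array. Cox4i2, a form known from lung and from hypoxia, read 3.61, 3.82 and 3.90 in the knockout arrays, against 4.08, 3.86 and 4.06 in the wild type arrays and did not pass (difference -0.22, interval -0.52 to 0.07). Shifts within the 4 isoform pairs were tested as the log2 value of the muscle or tissue form minus that of the common form, by a two-sided exact permutation test whose smallest p is 0.1 at 3 arrays against 3. None could therefore pass a threshold of 0.05. For Cox6a2 minus Cox6a1 the value was 1.03 ± 0.04 in knockout arrays and 0.84 ± 0.20 in wild type arrays (SD, n = 3 arrays each), a shift of 0.19 with exact p = 0.1 and no overlap. Wild type replicate 1 weighed on this shift, which was 0.08 without that array (exact p = 0.2). The shift was 0.22 for the pair Cox7a1 and Cox7a2 (exact p = 0.3; 0.10 without wild type replicate 1), -0.03 for Cox8b and Cox8a (exact p = 0.9; -0.18 and 0.16 without wild type replicates 1 and 2) and 0.48 for Cox4i2 and Cox4i1 (exact p = 0.2); over the 4 pairs the adjusted exact p was 0.4 for all but the Cox8b pair, at 0.9.

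**Figure D4:**
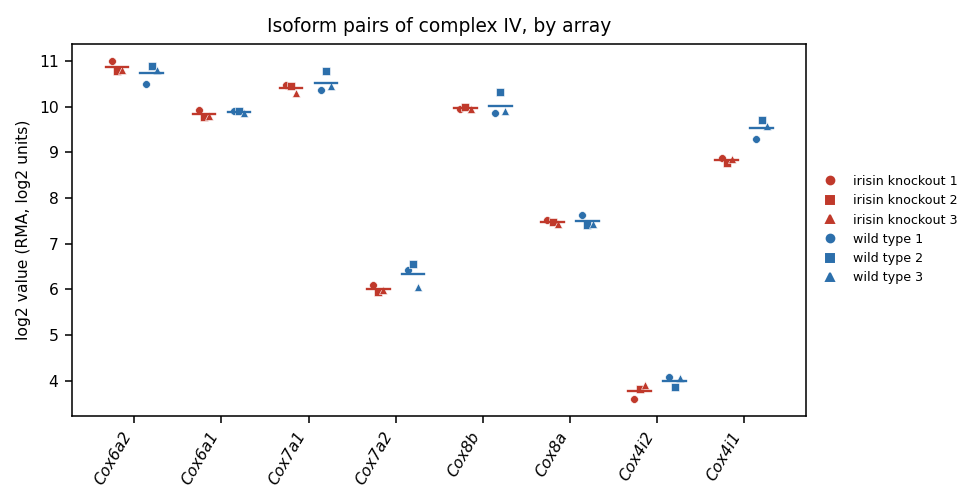
Value of each gene of the 4 isoform pairs on each array (vertical axis, log2 units), knockout in red to the left of wild type in blue, with lines at the group means (n = 3). Of these 8 genes only Cox4i1 has groups that do not overlap, with knockout values of 8.76 to 8.87 below wild type values of 9.30 to 9.71; levels of different genes are not comparable between probe sets.

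The other complex IV subunits did not pass. Cox5a, a subunit on the matrix side, read 8.44, 8.49 and 8.43 in the knockout arrays, against 8.76, 9.19 and 8.73 in the wild type arrays, with all knockout values below wild type but an adjusted p of 0.0795; it passed as lower after quantile normalization (-0.70, adjusted p = 0.0133). Cox5b read 1.19, 1.08 and 1.46 in the knockout arrays, against 1.48, 1.61 and 1.43 in the wild type arrays. Cox5b is a constant part of the enzyme, yet its row lay below the median of all genes, and a value this low was not set against a background level (difference -0.26). Cox6c, Cox7b and Cox6b1 differed by 0.27, 0.25 and -0.04. Cox7b and Cox7a2l also had low values, with means of 2.58 and 2.35 over the 6 arrays. The forms known from testis, Cox6b2, Cox7b2 and Cox8c, lay below the median of all genes too and differed by -0.04, 0.08 and 0.18. Cox7a2l, which helps to join complexes III and IV, differed by 0.01 (interval -0.32 to 0.34).

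In complex II, which is encoded by nuclear genes alone, 3 of 8 genes rose (37.5%) and 0 fell. In level parts 7 to 10, where these 8 lay, 23.5% of all genes rose and 10.9% fell. All 8 differences were positive on the deposited scaling, but Sdha and Sdhb were at -0.01 and -0.11 after quantile normalization, and the median of the 4 subunits, 0.30, became 0.03. Sdhc, one of the anchor subunits that bind ubiquinone and heme, read 9.65, 9.49 and 9.59 in the knockout arrays, against 8.85, 8.80 and 8.39 in the wild type arrays, a difference of 0.89 (SE 0.15, limma adjusted p = 0.00515). The other subunits did not pass: the flavoprotein Sdha differed by 0.27 (interval -0.05 to 0.58), the iron-sulphur protein Sdhb by 0.14 (-0.17 to 0.44) and the other anchor, Sdhd, by 0.33 (-0.07 to 0.73). Sdhd read 8.69 in wild type replicate 2, within the knockout range, and passed as higher without that array (0.52, adjusted p = 0.0418). Rises therefore concerned 1 of 4 subunits.

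Of the 4 complex II assembly factors, 2 rose. Sdhaf3, which helps the iron-sulphur subunit to mature, read 4.79, 4.89 and 5.03 in the knockout arrays, against 3.37, 4.25 and 3.61 in the wild type arrays, a difference of 1.16 (SE 0.21, limma adjusted p = 0.00785). Sdhaf2, which attaches the flavin to Sdha, read 5.79, 5.72 and 5.62 in the knockout arrays, against 5.11, 5.13 and 4.99 in the wild type arrays, a difference of 0.63 (SE 0.11, limma adjusted p = 0.00732). Neither gene's groups overlapped, and both calls held in all 6 fits without 1 array. Without both arrays numbered 1, Sdhaf2 narrowly missed (adjusted p = 0.0517). Sdhaf1 and Sdhaf4 differed by 0.21 and 0.39 and did not pass.

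Calls in complex III ran both ways, with 2 of 8 subunits higher and 2 lower, 25.0% each (median 0.04, and -0.18 after quantile normalization). All 8 lay in the brightest part, where 34.5% of all genes rose and 11.1% fell. Uqcrfs1, the Rieske iron-sulphur protein that hands electrons to cytochrome c1, read 6.56, 6.60 and 6.57 in the knockout arrays, against 5.87, 6.03 and 5.46 in the wild type arrays, a difference of 0.79 (SE 0.16, limma adjusted p = 0.0114). Uqcrc2, a core protein on the matrix side, read 9.70, 9.78 and 9.70 in the knockout arrays, against 9.08, 9.29 and 8.78 in the wild type arrays, a difference of 0.67 (SE 0.15, limma adjusted p = 0.0158). The genes that fell encode small subunits bound to cytochrome b and cytochrome c1. Uqcrq read 8.76, 8.74 and 8.64 in the knockout arrays, against 9.21, 9.77 and 9.59 in the wild type arrays, a difference of -0.81 (SE 0.16, limma adjusted p = 0.00946). Uqcr10 read 7.34, 7.30 and 7.30 in the knockout arrays, against 8.10, 8.15 and 7.71 in the wild type arrays, a difference of -0.67 (SE 0.14, limma adjusted p = 0.0143). For all 4 genes the groups did not overlap. Support was uneven: the Uqcrq call held in all 6 fits without 1 array, that of Uqcrfs1 in 5, and those of Uqcrc2 and Uqcr10 in 3, lost without any 1 knockout array (adjusted p up to 0.0683 and 0.0597). Uqcrfs1 missed without knockout replicate 2 (adjusted p = 0.0505), and Uqcrc2 also missed after quantile normalization (adjusted p = 0.0772).

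The remaining complex III genes did not pass. Cyc1, which encodes cytochrome c1, differed by 0.07 (interval -0.31 to 0.45), the core protein Uqcrc1 by 0.21 (-0.17 to 0.59), the hinge protein Uqcrh by 0.01 (-0.25 to 0.28) and Uqcr11 by -0.28 (-0.80 to 0.24). Small subunits of the chain often have processed pseudogenes, and probes may not tell them apart. A pair of pseudogene rows was left out of the 55 genes: Uqcrh-ps1, which fell by 0.60 (limma adjusted p = 0.0279), and Atp5c1-ps, at -0.11 (adjusted p = 0.664). Cycs, the mobile carrier between complexes III and IV, read 2.93, 3.22 and 2.65 in the knockout arrays. It read 3.35, 3.45 and 2.61 in the wild type arrays, with an interval of -0.76 to 0.34 for the difference. These low values, in level part 6, were not set against a background level.

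In complex V, 4 of 12 subunits rose (33.3%) and 2 fell (16.7%). The brightest part held 9 of the 12, and there 34.5% of all genes rose and 11.1% fell. Subunits of the stalks, which join the catalytic head to the membrane, did not move together. Atp5pb, Atp5d and Atp5o rose, Atp5c1 and Atp5j did not pass, and Atp5e fell. Atp5pb, subunit b of the peripheral stalk, read 9.17, 8.84 and 9.03 in the knockout arrays, against 8.02, 8.02 and 7.52 in the wild type arrays, a difference of 1.16 (SE 0.17, limma adjusted p = 0.00305). Atp5d, the delta subunit of the central stalk, read 9.58, 9.65 and 9.38 in the knockout arrays, against 8.94, 8.91 and 8.40 in the wild type arrays, a difference of 0.78 (SE 0.17, limma adjusted p = 0.0154). In both, the lowest knockout array lay above the highest wild type array. Atp5md, a small membrane subunit that aids dimers of the enzyme, read 8.68, 8.50 and 8.23 in the knockout arrays, against 7.65, 7.93 and 7.62 in the wild type arrays, a difference of 0.74 (SE 0.15, limma adjusted p = 0.0132). Atp5o, the subunit that ties the peripheral stalk to the head, read 5.63, 5.55 and 5.50 in the knockout arrays, against 5.31, 4.84 and 4.92 in the wild type arrays, a difference of 0.53 (SE 0.15, limma adjusted p = 0.0397). These calls differed in strength: that of Atp5pb held in all 6 fits without 1 array, those of Atp5d and Atp5md in 4, and that of Atp5o in 1 (adjusted p up to 0.130). Atp5d and Atp5md missed without knockout replicate 1 (adjusted p = 0.0613 and 0.0552) or 2 (0.0700 and 0.0573). After quantile normalization Atp5d (adjusted p = 0.0583), Atp5md (0.0693) and Atp5o (0.0990) missed.

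The fallen genes encode small subunits, and their promoter windows are printed above. Atp5e, the epsilon subunit of the central stalk, read 6.95, 6.99 and 6.88 in the knockout arrays, against 7.70, 8.10 and 7.72 in the wild type arrays, a difference of -0.90 (SE 0.14, limma adjusted p = 0.00381). Atp5k, subunit e at the interface between enzyme dimers, read 9.58, 9.53 and 9.49 in the knockout arrays, against 10.08, 10.36 and 10.31 in the wild type arrays, a difference of -0.71 (SE 0.12, limma adjusted p = 0.00585). Knockout arrays lay within 0.2 log2 units of each other for both genes and below all wild type arrays, and both calls held in all 6 fits without 1 array. Atp5e and Atp5d, which sit side by side in the central stalk, thus differed in opposite directions.

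The remaining complex V genes, among them those of the catalytic subunits, did not pass. Atp5b, the beta subunit that makes ATP, read 11.33, 11.52 and 11.41 in the knockout arrays, against 11.00, 11.20 and 10.93 in the wild type arrays; the groups did not overlap and the adjusted p was 0.0761, and 0.0311 after centring each array on its median. Atp5a1, the alpha subunit, differed by 0.20 (interval -0.10 to 0.51) and Atp5c1, the gamma subunit of the central stalk, by 0.17 (-0.22 to 0.56). Atp5g3, a source of the membrane ring's c subunit, differed by 0.05 (-0.41 to 0.51), and its related genes encode the same mature protein, so probes may be shared. Atp5j and Atp5mpl, small subunits of the stalk and membrane part, differed by 0.38 and 0.37, with groups that did not overlap but adjusted p of 0.123 and 0.184.

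**Figure D5:**
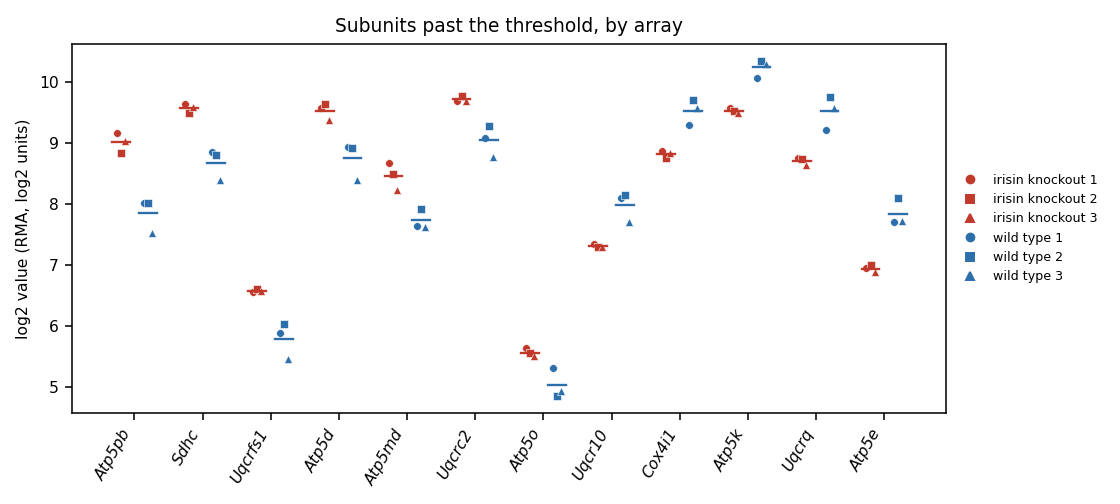
Value on each array (vertical axis, log2 units) of the 12 subunits past the threshold, 7 called higher at the left and 5 called lower at the right, with knockout in red to the left of wild type in blue and lines at the group means (n = 3). The groups do not overlap for any of the 12 genes, and wild type replicate 3 is the lowest wild type array for 6 of the 7 called higher.

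Arrays of a group were not alike across these genes. Wild type replicate 2 was the highest wild type array for 37 of the 55 genes, and replicate 3 was the highest for 0 and the lowest for 33. Knockout replicate 3 was the lowest knockout array for 29 genes. Such orders were not counted over all genes, so they may not be particular to the 55. The SD was larger in wild type than in the knockout for 40 of the 55 genes (72.7%), against 62.9% of all genes. Median SDs of the 55 were 0.10 in the knockout and 0.25 in wild type. Over all genes they were 0.14 and 0.18, and over all genes in the brightest part 0.11 and 0.21. Counts of calls depended on single arrays. Subunits and carriers called higher numbered 7, but 3 without knockout replicate 1, 2 without knockout replicate 2 and 3 without both arrays numbered 1, whereas assembly factors called higher numbered 8 and stayed between 7 and 9 in those and the other fits without 1 array. Over these 7 fits 6.05% to 11.1% of all genes were called higher. Of the 20 called genes, 13 were called in all 6 fits without 1 array: 9 higher ones (Cox10, Cox15, Cox16, Cox18, Cox20, Sdhaf2, Sdhaf3, Sdhc and Atp5pb) and 4 lower ones (Cox4i1, Uqcrq, Atp5e and Atp5k).

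The scaling of the arrays set the direction of some medians. Centring each array on its median moved all genes up by 0.11, so that the median of all genes was 0.07, and relative to that shift the differences of the 55 genes kept their order. Quantile normalization took the median of the assembly factors to 0.50, with 7 higher and 0 lower. It took the median of the other 42 genes to -0.036, with 3 higher and 7 lower, so that group's direction flipped relative to the deposited values (0.07). After that scaling 8.40% of all genes were higher and 6.47% lower. Medians of complex III subunits (0.04) and complex V subunits (0.37) became -0.18 and 0.22, and that of complex IV subunits (-0.05) became -0.25 after quantile normalization and 0.06 after centring.

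Other genes of the chain were compared in the same fit. Of 27 further assembly factors of complexes III to V, 10 rose (37.0%) and 1 fell (3.70%), with a median of 0.46, and 0.39 after quantile normalization. Of the 26 in level parts 7 to 10, 34.6% rose and 3.85% fell, where 23.5% and 10.9% of all genes did; the difference from other genes was not tested. Fastkd2, which acts on mitochondrial RNA, rose by 1.24 (SE 0.13, limma adjusted p = 0.000757), Surf1, a complex IV assembly factor, by 0.66 (SE 0.11, limma adjusted p = 0.00513), Atpaf1, a chaperone of the complex V head, by 0.83 (SE 0.14, limma adjusted p = 0.00602) and the complex IV factor Cmc1 by 0.79 (SE 0.14, limma adjusted p = 0.00711). Hccs, which attaches heme to the c cytochromes, fell by 0.54 (limma adjusted p = 0.0343); it was named after its value was seen, as the 1 lower call, which held in 2 of 6 fits without 1 array and was lost after centring (adjusted p = 0.0776). The list was chosen with earlier results of these data known.

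Genes listed as complex I subunits by their Nduf names went both ways, with 7 of 34 higher and 4 lower. Their median was 0.04, and -0.14 after quantile normalization. Ndufa4 was counted here by its name (0.04, not called), and whether it belongs to complex I or IV was not examined. As many as 28 of the 34 lay in the brightest part, where 21.4% of them rose and 14.3% fell against 34.5% and 11.1% of all genes. Ndufc1, an accessory subunit, rose by 1.30 (SE 0.20, limma adjusted p = 0.00341), the iron-sulphur subunit Ndufs8 by 1.08 (SE 0.17, limma adjusted p = 0.00452) and Ndufb9 by 0.77 (SE 0.13, limma adjusted p = 0.00487), while Ndufa5 differed by -0.89 (SE 0.15, limma adjusted p = 0.00628). The carriers that supply complex V with ADP and phosphate did not pass: Slc25a4 differed by 0.09 and Slc25a31 by 0.03, and 0 of 3 were called. Atpif1, the inhibitor of complex V, did not pass (-0.22, adjusted p = 0.262).

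Among 16 regulators of respiratory chain genes, 5 rose (31.2%) and 2 fell (12.5%). All 16 lay in level parts 7 to 10, where 23.5% of all genes rose and 10.9% fell. After centring 5 regulators were higher and 0 lower, against 13.6% and 4.21% of all genes. After quantile normalization 4 were higher and 3 lower, against 8.40% and 6.47% of all genes. Tfb1m, a methyltransferase of mitochondrial ribosomal RNA, read 4.92, 4.83 and 4.79 in the knockout arrays, against 3.88, 3.99 and 4.11 in the wild type arrays, a difference of 0.85 (SE 0.12, limma adjusted p = 0.00240). The oestrogen-related receptors Esrrg and Esrrb rose by 1.12 (SE 0.16, limma adjusted p = 0.00274) and 0.75 (SE 0.14, limma adjusted p = 0.00827), while the related Esrra did not pass (0.09, interval -0.26 to 0.44). Pprc1, a coactivator related to PGC-1, differed by -0.45 (SE 0.11, limma adjusted p = 0.0294). Gabpa, the DNA-binding subunit of GABP, rose by 0.55 (SE 0.14, limma adjusted p = 0.0304), Tfb2m, a mitochondrial transcription factor, by 1.61 (SE 0.44, limma adjusted p = 0.0407), and Nrf1 differed by -0.40 (SE 0.12, limma adjusted p = 0.0487). Yy1 did not pass (0.08, interval -0.23 to 0.39). In the 6 fits without 1 array, the calls of Tfb1m, Esrrg and Esrrb held throughout, that of Tfb2m in 2, those of Gabpa and Pprc1 in 1 and that of Nrf1 in 0 (adjusted p up to 0.155). Ppargc1a, which encodes PGC-1 alpha, did not pass (-0.40, adjusted p = 0.0657). Gabpa, Tfb2m, Nrf1, Esrra, Yy1 and Ppargc1a were added beside the 4 genes with the lowest p after their values were seen.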

How the data were processed

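TRIzol-extracted RNA was biotin-labelled (WT Plus kit) for Affymetrix arrays, per the labels. The authors deposited 1 RMA value per probe set and array on a log2 scale, from affy 1.61.0 with R 3.6.0 (submitters' processing notes); how probe sets were defined, and on which build, is not given in the sources used here. Their scale was inferred from values of 0.0929 to 12.96. Array medians ran from 2.13 to 2.28, and with 3 arrays a group precision is low; detection calls were not used.

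The annotation gave 23185 of 25206 rows 1 gene symbol, 2021 none and 0 several; rows without a symbol were left out. Titles gave the groups. Tests were limma 3.58.1 (R 4.3.3), lmFit and eBayes on genotype, two-sided, adjusted by Benjamini-Hochberg over 23185 genes (threshold 0.05); the code was tested on simulated data. Differences are knockout minus wild type. Exact permutation tests used scipy 1.17.1; plots used matplotlib 3.10.9. Every called gene is named; values by array are given for up to 4 called genes per complex and direction, the isoform pairs, and Cox5a, Cox5b, Cycs and Atp5b, which were added after their values were seen. Wider lists name at most 4 called genes each by p, with the exceptions Hccs and 6 regulators. The genes, lists and tests were chosen with earlier results of these data known. Alternatives were quantile normalization, centring, filters on dim genes, all rows, trended or robust eBayes, array weights, a replicate block, left-out arrays and other thresholds.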

Additional observations from a re-analysis of the deposited data

How the results depend on the processing

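Of the 55 genes, 0 called ones changed sign under any alternative run. Under quantile normalization 15 of the 20 calls were kept and 2 were gained; with filters on dim genes, all rows, a trended or a robust eBayes, and array weights all 20 were kept. Genes called higher, 15 on the deposited values, numbered 9 at an adjusted threshold of 0.01 and 16 at 0.1. Those called lower, 5, numbered 4 and 6. Of all genes 5.42% and 13.3% were higher at these thresholds, and 2.28% and 9.54% lower. In the fits without 1 array, 9 to 16 genes were higher and 4 to 5 lower, against 6.05% to 11.1% and 3.02% to 6.87% of all genes. Quantile normalization gave 10 higher and 7 lower, against 8.40% and 6.47% of all genes. Without both arrays numbered 1, 10 genes were called higher and 4 lower, against 7.63% and 4.05% of all genes. The subunits and carriers called higher, 7, numbered 3 after quantile normalization, 3 without both arrays numbered 1, and 2 to 7 without 1 array. For them the median difference, 0.073, became -0.036 under quantile normalization and lay between 0.018 and 0.21 without 1 array. The assembly factor median of 0.63 was 0.50 after quantile normalization and 0.74 after centring; the cause was not tested, except that centring adds 0.11 to every difference. In the wider lists, genes called higher, 22, numbered 12 without both arrays numbered 1 and 14 to 21 without 1 array. Genes called lower, 7, numbered 12 after quantile normalization and 3 after centring, where 6.47% and 4.21% of all genes were lower. They numbered 3 without both arrays numbered 1, and 1 to 6 without 1 array. The shift of the Cox4i2 and Cox4i1 pair was 0.75 without both arrays numbered 1. With the replicate number as a block, 14 genes were called higher and 5 lower, against 9.69% and 5.74% of all genes. Only Cox17 lost its call (limma adjusted p = 0.0588). Same-numbered arrays deviated together only weakly (correlations of 0.09, 0.05 and 0.07 across genes), so the numbers were not taken to pair the samples; 5 of the 6 arrays correlated best with their own number. With 3 arrays per group small differences can be missed, and low values were not set against a background level.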
